A study of Mus musculus with 194 samples.

Results

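The data described here are the levels of 40 mouse genes of ribosome biogenesis, a list of gene symbols covering the transcription of ribosomal RNA, its modification and cleavage, and the assembly of the small and large ribosomal subunits. All 40 symbols were found among the 23420 gene names of a single-cell RNA-seq table, and all 40 passed the filter on low values (ln(TPM + 1) over 1 in more than 10% of cells) in each cell type taken separately. Single cells had been left to grow and divide in a microfluidic trap array. For most cells the sister, any cousins and the hours since the last division were recorded. Each cell was then released and sequenced with Smart-Seq2, a full-length protocol that does not keep strand. CD8+ T-cells were primary spleen cells of C57BL/6J mice that had been activated for 30 h with plate-bound anti-CD3 at 5 µg/mL and soluble anti-CD28 at 2 µg/mL, then grown with IL2 at 100 U/mL. L1210 cells are an established lymphocytic leukemia line (ATCC CCL-219, strain given as DBA subline 212) and received neither the antibodies nor IL2. Of 194 libraries, 178 were analysed (97 CD8, 81 L1210) after removal of labelled doublets and of libraries with fewer than 1000 genes above 0 TPM (a level scaled to transcript length and to a fixed total per library). Since neither mice nor cultures are told apart in the labels, every p-value below measures only the spread between the lineages or cells of each type.

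Ribosomes are built in the nucleolus, where RNA polymerase I transcribes a long precursor RNA that is modified under the guidance of small nucleolar ribonucleoproteins (snoRNPs), cut, and packed with ribosomal proteins into pre-40S and pre-60S particles. Each step needs a set of assembly factors that are not part of the finished ribosome. Lymphocytes grow and enlarge their nucleoli on activation, and the transcription factor Myc is known to act on many genes of this pathway.

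The cells formed 34 CD8 lineages, of which 27 held at least 2 analysed cells, and 26 L1210 lineages, of which 24 did. A cell with no sister or cousin label counted as a lineage of its own, so its kinship with other cells is unknown. The hours since division ran from 0.5 to 9.475 in the 94 CD8 cells with a recorded time and from 0.3544 to 12.8 in the L1210 cells. Hours differed mainly between lineages, with an SD between lineage means of 2.29 h in CD8+ T-cells and 3.84 h in L1210 cells against 0.242 and 0.605 h within lineages. TPM keep no read depth, so the number of detected genes stands in for it, and it ran from 2639 to 10905 (median 6862) in CD8+ T-cells and from 1610 to 10454 (median 8402) in L1210 cells. The labelled cell types matched their markers: the summed level of 7 T-cell genes was 987 to 6416 TPM in CD8+ T-cells and at most 75.6 TPM in L1210 cells, where Cd3e and Cd3g were at 0, and 7 B-lineage genes summed to 485 to 4863 TPM in L1210 cells and at most 283 TPM in CD8+ T-cells, where 5 of the 7 were at 0. A pair of L1210 libraries stood apart. The cell L1210_8 had 2718 detected genes, 79.3% of its TPM in Rn45s (the 45S precursor RNA), and 10 of the 40 members above 0. The cell L1210_15 had 1610 detected genes, 55.5% of its TPM in Rn45s and 14 members above 0. The summed level and the counts of lineage likeness in L1210 cells are given with and without them.

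One sequence feature was looked up because Myc binds it: the E-box CACGTG, which reads the same on both strands. RefSeq promoter windows (GRCm38.p6, 250 bases before to 50 after the start) were held for 34 of the 40 members, and 7 of these windows (20.6%) contained the motif, against 12.2% of the 8456 windows of genes kept in either cell type and 19.6% of the 97 windows of a list of other ribosome biogenesis genes. The windows with the motif were those of Nop2, Ltv1, Utp20, Pes1, Mybbp1a, Tsr1 and Wdr43. No window was held for Rrp12, Fbl, Bop1, Mak16, Rrs1 and Npm1. The 30 bases around the motif are shown for the 4 of these genes whose likeness within lineages was called in both cell types with all cells included (described below), a call that none of the 4 kept in L1210 cells without L1210_8 and L1210_15, with the motif in capitals and its first base counted from the start site as base 1.
Tsr1 (chr11:74898092-74898121, plus strand, motif at base 25): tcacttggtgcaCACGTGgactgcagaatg
Wdr43 (chr17:71616220-71616249, plus strand, motif at base 18): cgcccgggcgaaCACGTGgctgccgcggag
Mybbp1a (chr11:72441347-72441376, plus strand, motif at base 41): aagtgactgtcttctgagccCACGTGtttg
Pes1 (chr11:3963965-3963994, plus strand, motif at base 3): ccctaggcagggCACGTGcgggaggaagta
In all 4 genes the motif lay just downstream of the start site, and in Nop2 it began 60 bases upstream (base -60). A match is a run of letters and was not tested as a binding site.

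The 40 members together made up 2264 to 15988 TPM per CD8+ T-cell (median 5868) and 1055 to 11361 TPM per L1210 cell (median 8282). Over lineage means this was 6350 ± 2272 TPM (SD, n = 34 lineages) in CD8+ T-cells and 7914 ± 1519 TPM (SD, n = 26) in L1210 cells, or 8028 ± 1308 TPM without L1210_8 and L1210_15. The ranges overlapped, and the coefficient of variation between lineages was 35.8% for the CD8 and 19.2% for the L1210 lineages. A CD8+ T-cell had a median of 37 members above 0 (18 to 40) and an L1210 cell a median of 40 (10 to 40), with all 40 above 0 in 29 CD8 and 67 L1210 cells. Detected genes were fewer in the CD8 libraries, and their part in this difference was not tested.

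With no mouse or culture named, levels were compared between the cell types by the ratio of the mean TPM over lineages and with no test. Of the 40 members, 35 were higher in L1210 cells and 5 in CD8+ T-cells, with a median ratio of 1.63 (L1210 over CD8), and 64.2% of all genes compared were higher in L1210 cells. A ratio past 2 was reached by 9 members in L1210 cells, which is 22.5% of them against 29% of all 11373 genes compared, and by 0 members in CD8+ T-cells against 13.9% of all genes. The share past 2 in L1210 cells was thus below that of all genes. All genes compared, here and after the scaling below, had passed the filter in either cell type, while every member passed it in both. The shares past 2 among genes kept in both types are not given. The lower shares of the members can therefore not be read as particular to them. TPM of genes kept in both types were shifted toward L1210 cells by a median of -0.34 on the log2 scale (CD8 over L1210). After scaling by this median of ratios, 31 members were higher in L1210 cells and 9 in CD8+ T-cells, beside 51.7% of all genes higher in L1210 cells, and 3 of 40 passed a ratio of 2, beside 21.2% of all genes.

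Among the genes of RNA polymerase I, Polr1a and Polr1b encode its largest subunits and Mybbp1a a nucleolar Myb-binding protein. Polr1b was at 0 to 134 TPM in CD8+ T-cells (median 4.08) and 0 to 290.5 TPM in L1210 cells (median 38.3). Its lineage mean was 19.7 ± 25.5 TPM against 44.1 ± 21.8 TPM, a ratio of 2.24. Mybbp1a, at 79.1 ± 57.7 TPM in CD8+ T-cells and 171 ± 52.9 TPM in L1210 cells, had a ratio of 2.17. Polr1a was the lowest of the 3 in both cell types, at 13.6 ± 13.1 TPM in CD8+ T-cells and 26.6 ± 10.3 TPM in L1210 cells. In all 3 genes the SD intervals of the cell types overlapped.

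The core proteins of the box C/D snoRNPs, which carry the RNA methylation guides, are encoded by Nop56, Nop58 and Fbl (the methyltransferase fibrillarin). Nop56 ran from 6.13 to 677 TPM in CD8+ T-cells (median 265) and from 0 to 619 TPM in L1210 cells (median 262). Its lineage means of 259 ± 99.8 and 262 ± 89.9 TPM did not differ beyond their spread, and neither did those of Nop58, at 234 ± 108 and 267 ± 72.4 TPM. Fbl had the highest ratio of the 3, at 1.64 (168 ± 64.7 TPM in CD8+ T-cells and 275 ± 65.5 TPM in L1210 cells).

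The box H/ACA snoRNPs guide the conversion of uridine to pseudouridine, and their core is made of Dkc1 (the pseudouridine synthase dyskerin), Gar1, Nhp2 and Nop10, with Nolc1 as a nucleolar chaperone of snoRNPs. The ratios in this group ran from 0.915 to 1.82 (L1210 over CD8). Dkc1 stood at 140 ± 76 TPM in CD8+ T-cells and 128 ± 42.6 TPM in L1210 cells, a ratio of 1.09 in favour of CD8+ T-cells. Gar1 was likewise 1.04 times as high in CD8+ T-cells, at 39.8 ± 40.6 and 38.1 ± 19.7 TPM. Nhp2 was the second most abundant member in both cell types, with 416 ± 261 TPM and 476 ± 140 TPM. Nop10 was at 229 ± 163 and 418 ± 136 TPM, and Nolc1 at 91.2 ± 43.7 and 139 ± 50.6 TPM.

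Of the members, 9 belong to the small subunit processome, the large complex in which the precursor RNA is folded and first cut. The highest ratio of all 40 members was found here for Wdr75, a subunit linked to early transcription and processing of the precursor. Wdr75 ran from 0 to 182 TPM in CD8+ T-cells (median 36.9) and from 0 to 274 TPM in L1210 cells (median 169), and its lineage means of 47.1 ± 35.2 and 156 ± 38 TPM gave a ratio of 3.31. Utp20, a scaffold protein, had the lowest level of the list, at 6.36 ± 4.58 TPM in CD8+ T-cells and 16.7 ± 7.36 TPM in L1210 cells, a ratio of 2.63. The processome factor Noc4l went the other way, with 139 ± 75.1 TPM in CD8+ T-cells and 123 ± 36.4 TPM in L1210 cells, a ratio of 1.13 in favour of CD8+ T-cells. Heatr1 and Utp15, at ratios of 2.09 and 2.05, also passed 2, while Wdr43, Nop14, Rcl1 and Rrp9 lay between 1.56 and 1.76.

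Of the 5 factors of pre-40S maturation, Rrp12, which takes part in subunit export, had a ratio of 2.78 (15.5 ± 13.1 TPM in CD8+ T-cells and 43 ± 16.9 TPM in L1210 cells). Tsr1, a GTPase-like factor that sits on late pre-40S particles (chr11:74898080-74909340, mm10), was at 0 in 15 of the 97 CD8+ T-cells and in 5 of the 81 L1210 cells. Its level was 0 to 156 TPM in CD8+ T-cells (median 31.5) and 0 to 148 TPM in L1210 cells (median 73.1), with a ratio of 1.88. Nob1, the nuclease that makes the last cut of 18S ribosomal RNA, Bysl and Ltv1 had ratios of 1.83, 1.56 and 1.49.

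The 11 members of pre-60S assembly included Rrs1, which brings the 5S ribonucleoprotein into the particle (chr1:9545408-9547455, mm10). Rrs1 was at 0 in 22 of the CD8+ T-cells but only 1 L1210 cell. It reached 229 TPM in CD8+ T-cells (median 38.9) and 317 TPM in L1210 cells (median 122), and its lineage means of 48.9 ± 42.3 and 115 ± 39.4 TPM gave a ratio of 2.35. Bop1, Pes1 and Wdr12, which form a single complex, had ratios of 1.60, 1.62 and 1.87. Rrp1b was the member with the largest ratio in favour of CD8+ T-cells, 1.27, at 26.4 ± 18.6 TPM against 20.9 ± 9.54 TPM, a difference within the spread. The other 6 genes of the group (Nop2, Nop16, Brix1, Ebna1bp2, Mak16 and Noc2l) had ratios from 1.03 to 1.94.

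Npm1 (nucleophosmin, a histone and ribosome chaperone, chr11:33152498-33164142, mm10) was by far the most abundant member, at 714 to 8488 TPM in CD8+ T-cells (median 2604) and 641 to 4320.3 TPM in L1210 cells (median 2868). Its lineage means of 2966 ± 1208 and 2878 ± 536 TPM differed by less than their spread. Npm1 has many processed copies in the genome, so its estimate depends on how shared reads were divided. Without Npm1 and Ncl (nucleolin) the summed level was 3213 ± 1110.4 TPM in CD8+ T-cells and 4790.2 ± 1022 TPM in L1210 cells. Ncl was at 171 ± 66.9 and 246 ± 45.6 TPM, Gnl3 (nucleostemin, a nucleolar GTPase) at 69.4 ± 54.3 and 116 ± 33.5 TPM, and the helicase Ddx21 at 36 ± 22.2 and 84.3 ± 20.3 TPM, a ratio of 2.34. Myc itself, which is no member, had a ratio of 2.10 in favour of L1210 cells (150 ± 108 and 315 ± 192 TPM), and Rn45s did not differ beyond its spread (207514 ± 75498 and 226867 ± 73066 TPM).

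**Figure D1:**
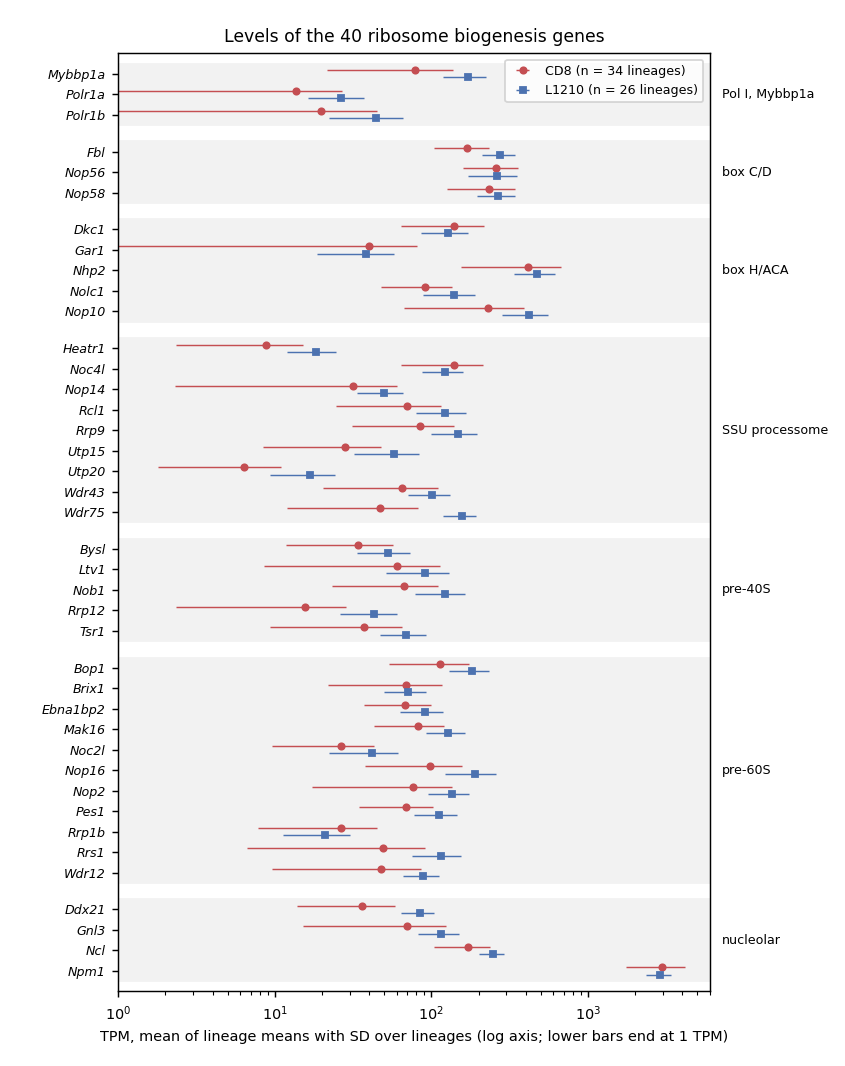
Mean TPM of each of the 40 members over lineage means, with SD, on a log axis, in CD8+ T-cells (red circles, n = 34 lineages) and L1210 cells (blue squares, n = 26 lineages), grouped by role. Most blue squares lie to the right of the red circles, most clearly for Wdr75 at 47.1 and 156 TPM, while Npm1 at 2966 and 2878 TPM stands apart from all other members.

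The next comparison asked whether the members changed with the hours since division. Each lineage was 1 point (its mean ln(TPM + 1) against its mean hours), limma was fitted over all genes, and p-values were adjusted by Benjamini-Hochberg. In CD8+ T-cells, 35 of the 40 slopes were below 0, with a median of -0.0951 per hour against -0.0350 over all 9997 genes, of which 68.3% had slopes below 0. After adjustment, 0 of 40 members were called (limma), and over all genes 0.04% fell and 0.0% rose. At an unadjusted p under 0.05, 10 members (25%) were lower with more hours and 0 were higher, beside 11.2% and 1.87% of all genes.

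The 3 members of lowest p were Tsr1, Rrs1 and Gnl3. The lineage means of Tsr1 ran from 27.6 to 133 TPM (median 63.7) in the 9 CD8 lineages sampled before 3 h, from 10.9 to 59.4 TPM (median 28.1) in the 13 lineages between 3 and 6 h, and from 0 to 48.2 TPM (median 24.2) in the 9 lineages after 6 h. The early and late lineages thus overlapped in part, and the slope was -0.291 ± 0.0742 per hour (SE, n = 31 lineages, limma adjusted p = 0.0886). Rrs1 ran from 3.34 to 179 TPM (median 74) before 3 h, from 17.4 to 115 TPM (median 64.9) between 3 and 6 h, and from 3.21 to 48.5 TPM (median 9.88) after 6 h. Low Rrs1 levels were therefore also present in early lineages, and the slope was -0.311 ± 0.0848 per hour (SE, limma adjusted p = 0.109). The highest early values of Tsr1 and Rrs1 came from a lineage with a single analysed cell at 1.983 h. The lowest early value of Rrs1 came from a single-cell lineage at 0.5 h. Gnl3 (chr14:31012433-31019131, mm10) had medians of 82.6, 71.2 and 28.1 TPM in the 3 time windows and a slope of -0.266 ± 0.0808 per hour (SE, limma adjusted p = 0.151). Its late lineages ran from 1.76 to 126 TPM and so reached well into the early range of 35.4 to 141 TPM.

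**Figure D2:**
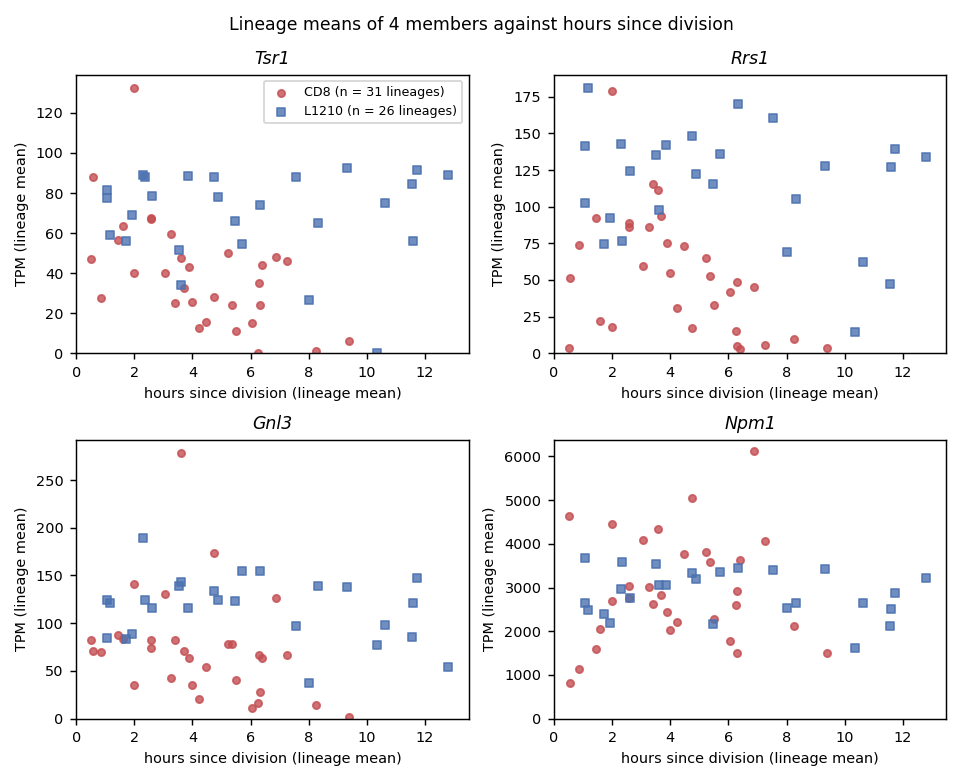
Lineage means in TPM of Tsr1, Rrs1, Gnl3 and Npm1 against the lineage mean of hours since division, for 31 CD8 lineages (red circles) and 26 L1210 lineages (blue squares). CD8 lineages after 6 h lie low for Tsr1 (at most 48.2 TPM) and Rrs1 (at most 48.5 TPM), while for Npm1 they spread from 1498 to 6116 TPM.

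The other members with an unadjusted p under 0.05 were Nop58 (slope -0.116 ± 0.0389 per hour, SE), Wdr43, Ddx21, Brix1, Nop56, Gar1 and Rcl1, which belong to 5 of the 7 roles. The median slope was lowest for pre-40S maturation, at -0.155 per hour over 5 members. Within the box H/ACA group, whose core proteins Dkc1, Gar1, Nhp2 and Nop10 work as 1 complex, the slopes ran from -0.154 for Gar1 to 0.102 ± 0.0533 per hour (SE, limma adjusted p = 0.411) for Dkc1. Npm1 had a slope of 0.0271 ± 0.0412 per hour. The summed level of the members had a median over lineages of 5343 TPM before 3 h (2541 to 9669), 6983 TPM between 3 and 6 h (5039 to 9993) and 5054 TPM after 6 h (2882 to 12477). These ranges overlapped, and the course of the sum was not tested. Npm1 alone, at a mean of 2966 TPM over CD8 lineages, made up a large part of the mean sum of 6350 TPM. In a fit with hours and hours squared, 18 of 40 members had an unadjusted joint p under 0.05 with a falling linear term, beside 10.0% of all genes, and 0 were called after adjustment.

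The call in CD8+ T-cells depended on what counted as an observation. With each cell as an observation and a shared correlation within lineages, 4 members fell with hours in the limma fit: Tsr1 (-0.323 ± 0.0693 per hour, SE, limma adjusted p = 0.00978), Rrs1 (limma adjusted p = 0.0306), Gnl3 (limma adjusted p = 0.0390) and Wdr43 (limma adjusted p = 0.0479). These were 4 of the 11 genes (0.11%) that fell in that fit. Hours differed mainly between lineages, so further cells of a lineage add little to a slope over hours. The fit also used 1 correlation for all genes, which makes p-values too small for a gene whose own correlation is higher. The intraclass correlations of these 4 members, given below without hours fitted, lay above the median of all genes. Their p-values may therefore overstate the evidence. The whole list was drawn up with earlier results of these data known, and Rrs1 and Tsr1 were named then. None of these 4 calls, nor their count, is therefore independent support. The count was also 4 with the number of detected genes as a covariate (0.16% of all genes fell) and 5, with Nop58 added, when TPM were rescaled without Rn45s (0.237% of all genes fell). With lineage means as points, leaving out the single-cell lineage sampled at 0.5 h, the cell CD8_77, called Rrs1 (limma adjusted p = 0.0345). Leaving out each of the other 30 lineages called no member. Over all 31 omissions the adjusted p of Tsr1 ran from 0.0573 to 0.250 and that of Rrs1 from 0.0345 to 0.371.

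Library measures moved with hours in the same cells. Over the 31 CD8 lineages the detected genes had r = -0.187 with hours and the share of TPM in Rn45s r = -0.444, given as descriptions over lineages sequenced as single-cell libraries. The median share of Rn45s was 26.7% before 3 h and 17.7% after 6 h, and Rn45s itself had a slope of -0.0768 ± 0.0348 per hour (SE, limma adjusted p = 0.332). The part of these measures in the slopes was examined only through the settings given: with detected genes as a covariate the median slope of the members was -0.0574 per hour, with 30 of 40 below 0. The matching values over all genes are not given for this setting, so it does not show a fall particular to the members. Myc had a slope of -0.293 ± 0.0953 per hour (SE, limma adjusted p = 0.173).

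In L1210 cells, 37 of 40 slopes were below 0, with a median of -0.0409 per hour against -0.00789 over all 10536 genes, of which 57.9% lay below 0. None of the 40 members was called (limma), as was none of all genes (0.0% in either direction), and at an unadjusted p under 0.05 there were 2 members lower with more hours (5%) and 0 higher, beside 2.98% and 2.35% of all genes. The lowest p belonged to Polr1b, with lineage medians of 45.4 TPM before 3 h, 41.4 TPM between 3 and 6 h, 61.9 TPM between 6 and 9 h and 16.8 TPM after 9 h. Its lineages after 9 h ran from 6.65 to 77.6 TPM and so covered the range of the early ones, and its slope was -0.0991 ± 0.0338 per hour (SE, n = 26 lineages, limma adjusted p = 0.835). Nop10 (-0.0705 ± 0.0310 per hour, SE) and Nhp2 (-0.0656 ± 0.0327 per hour, SE) of the box H/ACA core followed, both with an adjusted p of 0.873 (limma). Rrs1 and Tsr1 stayed at medians of 113 to 135 TPM and 65.8 to 84.3 TPM in the 4 time windows. All these values include the sparse cells L1210_8 and L1210_15, sampled at 10.35 and 8.16 h. Without both cells 0 of 40 members were called (limma), as was none of all genes. The median slope of the members without them is not given. When each lineage was left out in turn, the slope of Tsr1 ran from -0.0578 to 0.0100 per hour. That of Rrs1 ran from -0.0625 to -0.0126 per hour.

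The difference between the 2 slopes was tested directly as an interaction of cell type and hours. For 0 of 40 members was it called (limma), beside 0.0% of 9160 genes in either direction. At an unadjusted p under 0.05 the CD8 slope was lower for 7 members (17.5%) and higher for 1, beside 9.1% and 2.45% of all genes. The difference was -0.263 ± 0.0877 per hour for Rrs1 (SE, limma adjusted p = 0.235), -0.251 ± 0.0904 for Tsr1 (SE, limma adjusted p = 0.282) and -0.236 ± 0.0864 for Gnl3 (SE, limma adjusted p = 0.293). The member with the higher CD8 slope was Dkc1, at 0.151 ± 0.0657 per hour (SE, limma adjusted p = 0.380). A course that differs between the cell types was therefore not shown for any member.

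**Figure D3:**
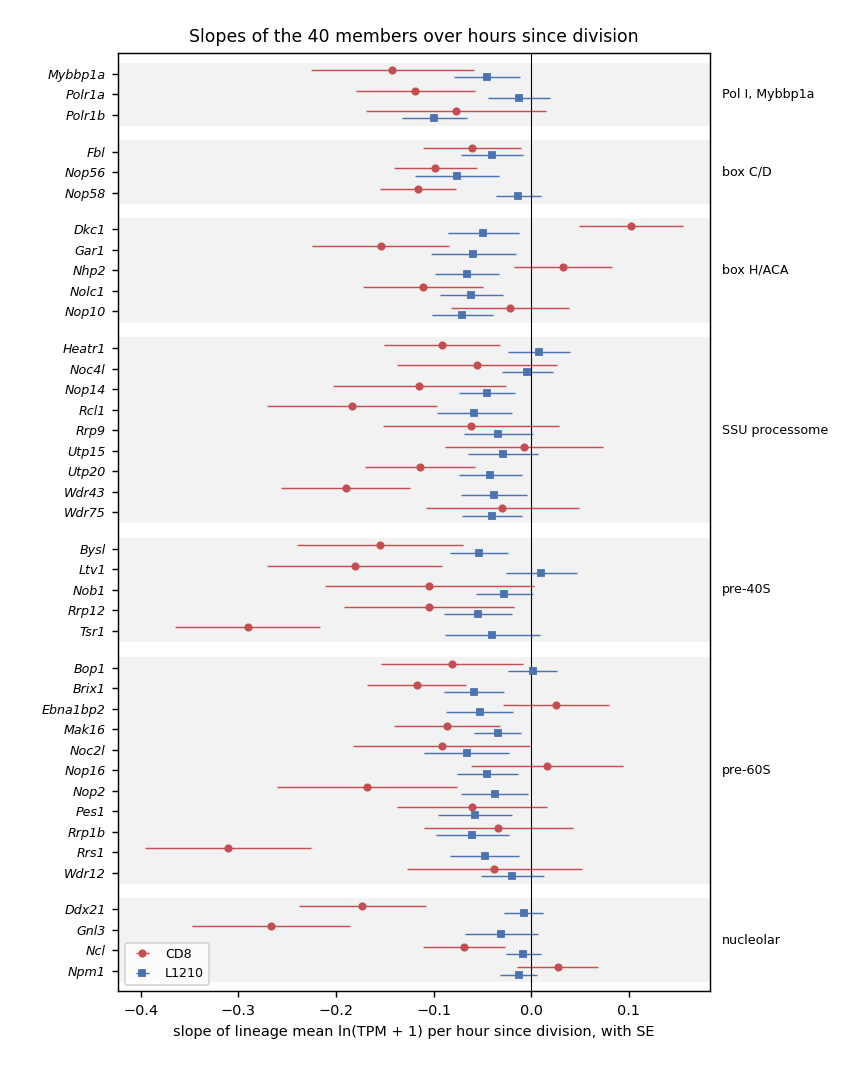
Slope of the lineage mean of ln(TPM + 1) per hour since division, with SE, for each member in CD8+ T-cells (red circles, n = 31 lineages) and L1210 cells (blue squares, n = 26 lineages), grouped by role. Of the red circles 35 lie below 0 and of the blue squares 37, with Rrs1, Tsr1 and Gnl3 farthest to the left in CD8+ T-cells. The cells L1210_8 and L1210_15 are included.

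A list of 123 other genes of ribosome biogenesis was measured in the same way. In CD8+ T-cells 0 of 123 were called (limma), and 19 (15.4%) had an unadjusted p under 0.05 and a slope below 0, against 11.2% of all genes. The lowest p values belonged to Rrn3, the initiation factor of RNA polymerase I (-0.287 ± 0.0771 per hour, SE, limma adjusted p = 0.101), the helicase Ddx31 and the exosome nuclease Dis3. In L1210 cells 0 of 123 were called (limma) and 2 had an unadjusted p under 0.05 with a slope below 0.

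The third comparison asked whether cells of 1 lineage were more alike in a member than cells of different lineages. It used the limma F-test of lineage over cells and, as a measure of size, the intraclass correlation of ln(TPM + 1), the share of the variance that lies between lineages. In CD8+ T-cells (90 cells in 27 lineages) 20 of 40 members were called at an adjusted p under 0.05, which is 50% against 12.4% of all 9997 genes. The list was drawn up with earlier results of these data known. The members' share of calls in either cell type is therefore a description and not independent support. All 40 members also passed a stricter filter, ln(TPM + 1) over 1 in more than 50% of cells. With that filter the same 20 were called, against 17.1% of 6158 genes. On shuffled cells this test made more false calls than its threshold sets in either cell type, so single calls near the threshold are uncertain. The median intraclass correlation was 0.254 over the members and 0.0902 over all genes. Npm1, Ncl, Gnl3 and Ddx21, grouped as nucleolar proteins, were all called. So were 3 of 5 pre-40S factors, 5 of 9 processome factors, 2 of 3 box C/D proteins, 4 of 11 pre-60S factors, 1 of 3 in the RNA polymerase I group and 1 of 5 in the box H/ACA group.

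Npm1 had the highest intraclass correlation, 0.691 (limma adjusted p = 0.000545). Its lineage means of ln(TPM + 1) ran from 6.70 to 8.68 (median 7.87) with an SD between lineages of 0.457, while the median SD within a lineage was 0.227. Ncl followed at 0.544 (limma adjusted p = 0.00222), with an SD of 0.499 between and 0.317 within lineages. Gnl3 had the lowest p (0.447, limma adjusted p = 0.000514), with lineage means from 0.737 to 5.58.

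The remaining members of lowest p were Nolc1 (intraclass correlation 0.456), Nob1 (0.408), Tsr1 (0.405), Ddx21 (0.415), Mybbp1a (0.398), Wdr43 (0.388) and Wdr12 (0.331), with adjusted p from 0.00115 to 0.00982 (limma). Rrs1 was also called, at 0.288 (limma adjusted p = 0.0224), and Myc at 0.383 (limma adjusted p = 0.00256). Polr1a and Heatr1 were the members with an estimate below 0, at -0.00899 and -0.0183. Of the 123 other genes of the pathway 20 were called (16.3%), among them Nol9 and Nop9.

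The cells of a lineage were sampled at similar hours, so the count was repeated with covariates. With detected genes as a covariate 10 members were called (25% against 9.23% of all genes), with hours as a covariate 14 (35% against 10.3%), and with both 6 (15% against 7.56%). Those 6 were Npm1, Nolc1, Gnl3, Wdr75, Ncl and Nob1. With only the 16 lineages of 4 cells, 9 members were called (22.5% against 8.53%), Npm1 not among them (limma adjusted p = 0.0546). Gnl3, Nolc1 and Nob1 were called in every one of the 12 alternative settings run.

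In L1210 cells (79 cells in 24 lineages) 13 of 40 members were called, which is 32.5% against 12.9% of all 10536 genes, and the median intraclass correlation was 0.201 over the members and 0.109 over all genes. With the filter of over 1 in more than 50% of cells the same 13 were called, against 14.8% of 8243 genes. Tsr1 had the lowest p, at an intraclass correlation of 0.467 (limma adjusted p = 0.00115). Its lineage means of ln(TPM + 1) ran from 0 to 4.53 (median 4.28), with an SD of 1.02 between and a median SD of 0.395 within lineages. The lineage at 0 held the cell L1210_8, and without L1210_8 and L1210_15 the intraclass correlation of Tsr1 was 0.0882 (limma adjusted p = 0.464). Mybbp1a (0.487), Rrs1 (0.439), Rcl1 (0.439), Rrp1b (0.436), Nop56 (0.425), Gar1 (0.363), Pes1 (0.342), Nolc1 (0.337) and Wdr75 (0.309) came next, with adjusted p from 0.00267 to 0.0383 (limma), and Myc stood at 0.444 (limma adjusted p = 0.00188). None of the 4 genes grouped as nucleolar proteins was called, at intraclass correlations of 0.455 for Npm1 (limma adjusted p = 0.483), 0.253 for Ncl (limma adjusted p = 0.740), 0.241 for Gnl3 (limma adjusted p = 0.0743) and 0.0572 for Ddx21. Npm1 was called with a pseudocount of 10 TPM and with no filter on genes. The limma test moderates each variance toward that of all genes, and the intraclass correlation does not. Of the 123 other genes 18 were called (14.6%).

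The L1210 count was lower without L1210_8 and L1210_15. Without both cells 3 members were called, Nolc1, Rcl1 and Rrp1b (7.5% against 3.76% of all genes), and with at least 4000 detected genes per cell 4 were (10% against 5.22%). With detected genes as a covariate 2 were called (5% against 4.77%) and with hours and detected genes 0 of 40 (0.0% against 3.53%).

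The 20 members called in CD8+ T-cells and the 13 called in L1210 cells shared 9: Mybbp1a, Nolc1, Nop56, Pes1, Rcl1, Rrs1, Tsr1, Wdr43 and Wdr75. This is 45% of the CD8 calls and 69.2% of the L1210 calls, beside 16.3% and 14.9% for the 202 genes called in both among all genes, and 16 members were called in neither. A larger share of members than of all genes was called in each type, on a list drawn up with earlier results known. The closer comparison is therefore with the members' own shares. Of all 40 members, 32.5% were called in L1210 cells and 50% in CD8+ T-cells. Without L1210_8 and L1210_15 the shared members were 2, Nolc1 and Rcl1, which is 10% of the CD8 calls and 66.7% of the 3 L1210 calls, beside 7.19% and 22.2% for all genes. The members' own share called in L1210 cells was then 7.5%. The difference in likeness between the cell types was not tested.

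**Figure D4:**
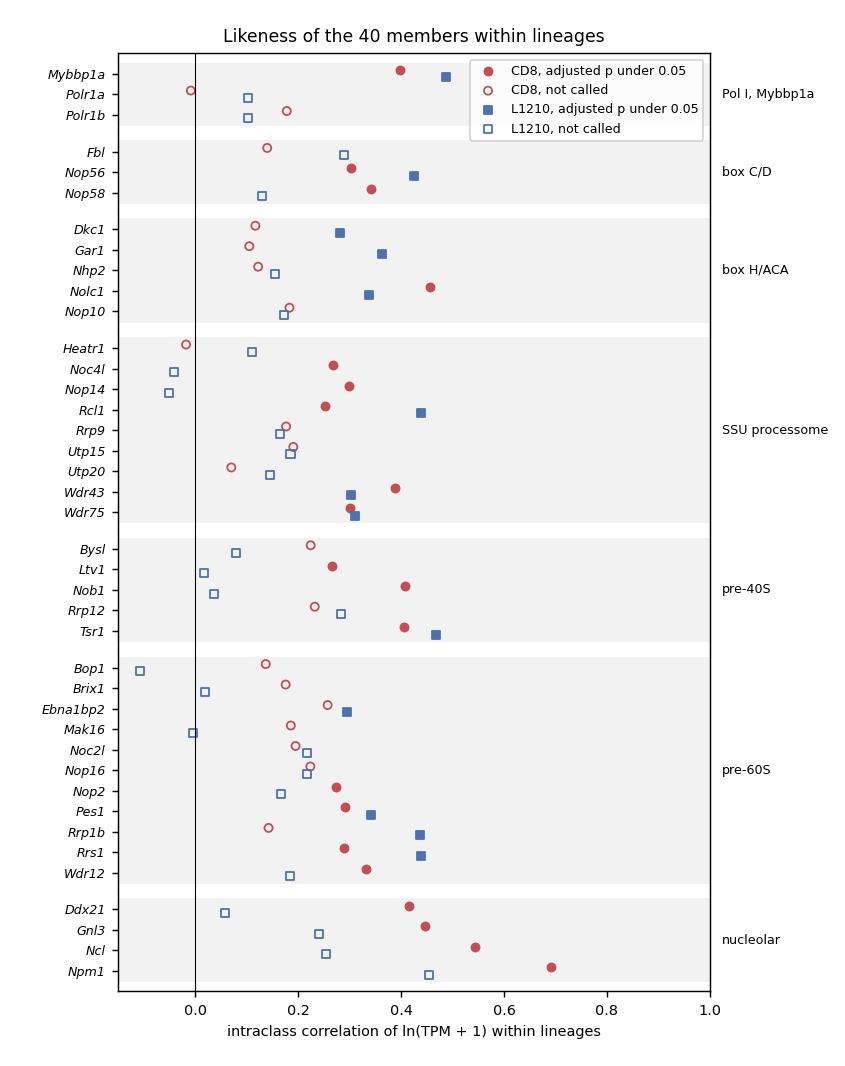
Intraclass correlation of ln(TPM + 1) within lineages for each member in CD8+ T-cells (red circles, 90 cells in 27 lineages) and L1210 cells (blue squares, 79 cells in 24 lineages), with filled symbols for an adjusted p under 0.05 in limma. Npm1 and Ncl lie farthest to the right in CD8+ T-cells, at 0.691 and 0.544.

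Across single cells the members also varied together, which is given as a description, because the cells of a lineage are not independent and the members are read from the same libraries. After removing the linear dependence of ln(TPM + 1) on detected genes, the median Spearman rho over the 780 pairs of members was 0.203 in CD8+ T-cells (97 cells), with 708 pairs above 0, and the median over all pairs of 9997 genes was 0.0189. In L1210 cells (81 cells) it was 0.325, with 776 pairs above 0, against 0.0263 over all pairs of genes. Without L1210_8 and L1210_15 the L1210 value was 0.222, with 737 pairs above 0, against 0.0201.

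The closest pair in CD8+ T-cells was Ncl and Npm1 (rho = 0.702), followed by Nop56 and Gnl3 (0.609) and Npm1 and Dkc1 (0.595), and Rrs1 and Tsr1 reached 0.562. In L1210 cells the 6 closest pairs all held Dkc1 or Pes1, led by Dkc1 and Gnl3 (0.777) and Dkc1 and Pes1 (0.742), in values that include the 2 sparse cells. The member with the highest median rho to the other members was Nop56 (0.325) in CD8+ T-cells and Nhp2 (0.453) in L1210 cells, and the lowest were Gar1 (0.0383) and Heatr1 (0.158). The median rho of Myc with the members was 0.149 in CD8+ T-cells, and it was 0.297 in L1210 cells (0.202 without the 2 cells). Rn45s had a median rho of 0.0263 with them in CD8+ T-cells, against -0.201 in L1210 cells. Rn45s takes up part of a fixed TPM total in both cell types, so its share sets how much is left for the other genes. The part of this in either value was not tested.

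**Figure D5:**
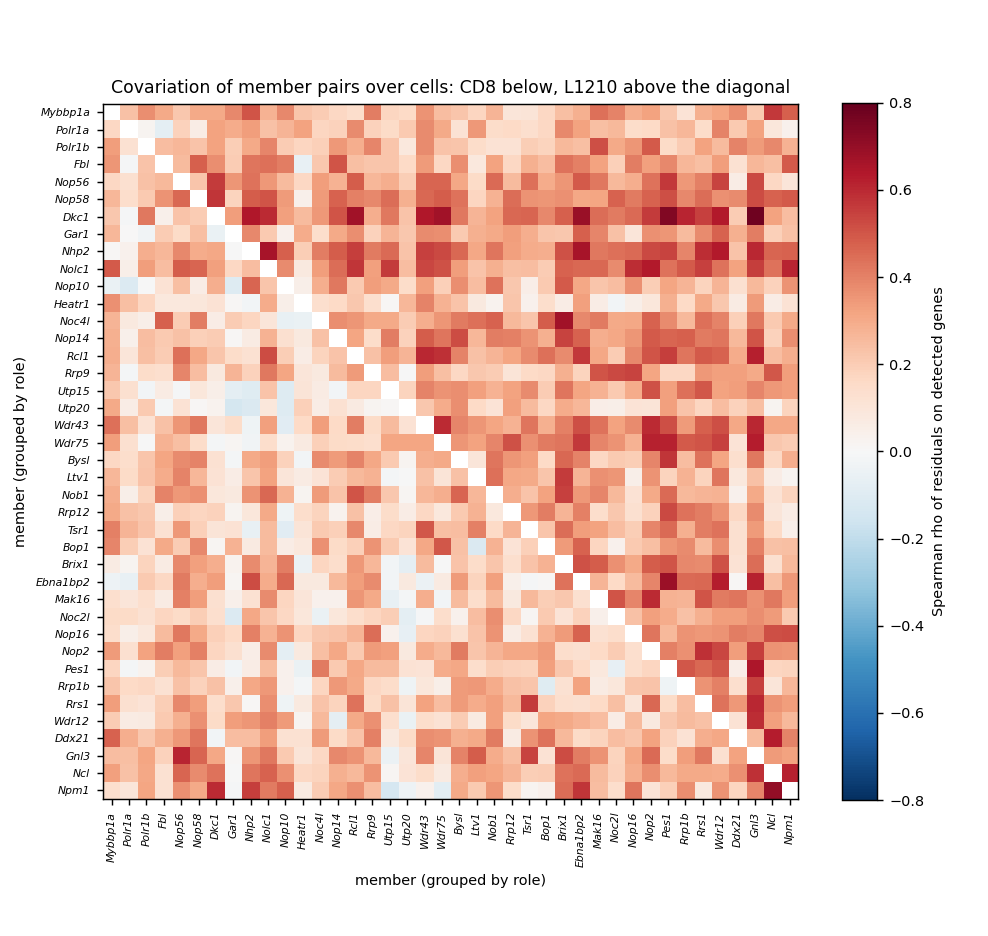
Spearman rho between members over cells, on residuals of ln(TPM + 1) on detected genes, for 97 CD8+ T-cells (below the diagonal) and 81 L1210 cells (above the diagonal), with members ordered by role. Red marks a positive rho, and 708 of 780 CD8 pairs and 776 of 780 L1210 pairs lie above 0.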

How the data were processed

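The deposited table holds TPM, which the authors estimated per gene and cell (the submitters' processing notes name bcl2fastq, TopHat2, RSEM 1.2.3 and the mm10 build). TPM sum to 1000000 per library and keep no depth, so no counting interval was given. The 40 members and the lists of other genes were chosen with earlier results of these data known. Labelled doublets (4 CD8, 2 L1210) and libraries with fewer than 1000 genes above 0 TPM (5 and 5) were left out. Lineages were built from sister and cousin labels that name each other, and 4 links that did not were ignored. A cell without any such label was kept as a lineage of its own. Values were analysed as ln(TPM + 1), with a pseudocount of 1 TPM, in limma 3.58.1 (R 4.3.3), over genes with a value over 1 in more than 10% of cells. P-values were adjusted over all such genes by Benjamini-Hochberg, with a threshold of 0.05. The scripts were tested on simulated data, where the likeness test made more false calls than its threshold sets. Slopes are on the ln(TPM + 1) scale, which understates changes of low genes. Full values were given for Rrs1 and Tsr1, for the members called (at most 10 of lowest p per fit, or the 3 of lowest p where fewer than 3 were called), for the 5 highest and 5 lowest ratios, and for Myc and Rn45s. Of 23420 names, 27 were dates, and 2 names stood in more than 1 place. Reads of overlapping genes on opposite strands cannot be told apart. Gene positions were taken from GENCODE (GRCm38) and promoter windows from RefSeq. Alternatives changed the pseudocount, the filters, the scaling, the covariates, the unit of observation and the cells left out.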

Additional observations from a re-analysis of the deposited data

How the results depend on the processing

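The course in CD8+ T-cells had 0 members called with lineage means, and 4 with cells as observations and a lineage correlation, 4 with detected genes added to that fit and 5 with TPM rescaled without Rn45s in it, and 0 to 1 over the leave-one-out fits of the lineages. The CD8 likeness count of 20 was 13 with a pseudocount of 0.1 TPM (10.7% of all genes), 10 with detected genes as a covariate, 6 with hours and detected genes, 11 without Rn45s and with detected genes (9.89%), and 9 with only 4-cell lineages. The L1210 likeness count of 13 was 4 with at least 4000 detected genes, 2 with detected genes as a covariate, 8 with hours (10.5%), 0 with hours and detected genes (limma), 2 without Rn45s and with detected genes (5.83%), 7 with only 4-cell lineages (5.2%), and 3 without L1210_8 and L1210_15. The 9 members past a ratio of 2 in L1210 cells were 17 with medians over lineages (40% of all genes) and 3 after median of ratios scaling. In all other settings, 124 of 142, each count stayed within 1.5 times its reported value. Most of these were course or slope-difference settings (42 CD8, 43 L1210 and 13 for the difference), where the reported count was mostly 0. Of the likeness settings, 5 of 12 in CD8+ T-cells and 7 of 14 in L1210 cells moved further than that. The intraclass correlation of Tsr1 in L1210 cells reversed to -0.0283 (limma adjusted p = 0.796) with at least 4000 detected genes. Of 574 further values for single genes, 489 kept their direction and side of the threshold, 72 lost the call and 12 gained it. The cause of these changes was not tested. The alternatives with covariates combined, 4-cell lineages, omitted lineages and omitted pairs of cells were chosen after seeing the data. No paired analysis was possible because the numbers of CD8 and L1210 cells only name cells.

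Read depth is not known from TPM, so a member listed at 0 in a cell was not detected there rather than shown to be absent. Hours varied little within lineages, and fits of the slope within lineages carry little information. Hours and lineage can therefore not be told apart for lineages sampled at different times. Each cell type stands for an unknown number of cultures.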

Other observations

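The libraries left out of all comparisons were also examined for the members. In the 4 CD8 libraries labelled as doublets the summed level of the 40 members was 3150.2 to 4312 TPM, with 4710.0 to 6966 detected genes, which lies below the median of single CD8+ T-cells (5868 TPM). In the 2 L1210 doublets it was 3212 and 6548 TPM, with between 1823 and 5170.0 detected genes. The 5 CD8 libraries with fewer than 1000 genes ran from 0 to 48036 TPM and the 5 such L1210 libraries from 0 to 10429 TPM, each from 12 to at most 801 detected genes.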
